A study of Homo sapiens with 33 samples.

Results

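The 39 genes described here encode nuclear subunits of the mitochondrial respiratory chain. They comprise 6 core and 13 accessory subunits of complex I, all 4 subunits of complex II, 6 subunits of complex III, 9 subunits of complex IV and CYCS, the somatic cytochrome c. They were taken by name from a fixed list, out of 19974 protein-coding genes on chromosomes 1 to 22 and X, and each was found in RefSeq (NDUFA4, which is assigned to complex IV, is listed there under the symbol COXFA4). A gene was called strong in a library when one of the 10000 peaks of highest −log10 q in that library had its summit within 5000 bp of either end of the gene.

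The respiratory chain passes electrons from NADH (complex I) and succinate (complex II) through ubiquinone to complex III, then by cytochrome c to complex IV, which reduces oxygen. Its subunits are encoded by both the nuclear and the mitochondrial genome, apart from complex II, which is wholly nuclear. MITF, the master transcription factor of melanocytes, binds E-box sequences such as CACGTG and CATGTG, and in melanoma it is known to raise respiration in part through PPARGC1A, a coactivator of mitochondrial genes.

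The assay was CUT&Tag, where a transposase is brought to chromatin by an antibody, in these libraries one against the HA tag, and cuts nearby DNA. The cells were UACC-257, an established human melanoma line, and every library, controls included, is labelled MITF knockdown and doxycycline treated. The groups, of 3 libraries each, were the MITF variants rep217A, rep263A, K243A, G244E, Y253A, E260A, Q261A, A264C and N278D, followed by wild-type MITF (WT) and a control labelled Empty. In rep217A and rep263A replicates 2 and 3 held identical lists and were counted once, so n was 2 there and 31 distinct libraries remained. Nothing in the labels tells whether replicates came from separate cultures, and the p-values therefore measure only the spread between libraries, which may be technical.

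The lists differed in depth. The 10000th peak had a −log10 q of 9.74 to 132.6 in the variants and 92.1 to 100.2 in WT, but 1.63 to 1.87 in Empty, where 13656 to 16400 peaks shared that value. Ties took their mean rank, so only 5068 to 8305 peaks counted as strong in Empty. Of 16 pigmentation genes, many of them known MITF targets, 11 were strong in every WT library, and a mean of 3.67 ± 2.08 in the 3 Empty libraries (SD). Of 12 lymphoid markers, 1.33 ± 0.577 were strong in WT and 2 ± 1 in Empty, and of 12 hepatocyte markers 0.333 ± 0.577 were strong in either group. Peaks of a tagged factor at its targets do not identify the cells, so the labelled cell type could not be checked. Ranks give the place of a peak within its own library, not an amount of binding.

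The promoters of SDHB, COX5A, CYCS and UQCRH are shown because some of the largest differences described below had their WT summit within them. The summits at CYCS and UQCRH also lay near an end of another gene (SPMIP4 and LRRC41). SDHC, which differed as widely, is not in the RefSeq promoter table. Each sequence runs 5′ to 3′ on the strand of the gene, from 250 bases before to 50 bases after the RefSeq gene start (GRCh38.p14), and the 21 capitals are centred on the summit of the highest ranked WT peak.
SDHB (chr1:17053983-17054282, minus strand): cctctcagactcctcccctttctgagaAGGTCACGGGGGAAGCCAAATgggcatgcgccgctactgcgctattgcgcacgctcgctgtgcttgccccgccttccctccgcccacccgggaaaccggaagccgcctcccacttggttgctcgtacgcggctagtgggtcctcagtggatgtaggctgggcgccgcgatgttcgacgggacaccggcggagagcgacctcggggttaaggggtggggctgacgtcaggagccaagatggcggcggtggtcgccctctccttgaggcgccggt
COX5A (chr15:74938024-74938323, minus strand): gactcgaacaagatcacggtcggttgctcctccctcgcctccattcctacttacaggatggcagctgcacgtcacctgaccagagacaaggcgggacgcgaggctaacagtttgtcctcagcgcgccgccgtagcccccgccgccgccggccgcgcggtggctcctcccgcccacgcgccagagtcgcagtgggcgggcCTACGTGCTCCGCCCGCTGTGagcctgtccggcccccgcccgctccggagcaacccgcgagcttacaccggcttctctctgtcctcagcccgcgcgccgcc
CYCS (chr7:25125211-25125510, minus strand): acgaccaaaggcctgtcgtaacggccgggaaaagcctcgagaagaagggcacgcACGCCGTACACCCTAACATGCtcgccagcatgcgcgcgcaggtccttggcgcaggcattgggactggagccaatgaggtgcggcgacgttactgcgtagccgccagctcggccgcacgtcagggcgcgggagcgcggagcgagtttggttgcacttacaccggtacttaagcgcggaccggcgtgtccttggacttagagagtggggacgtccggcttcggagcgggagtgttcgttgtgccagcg
UQCRH (chr1:46303448-46303747, plus strand): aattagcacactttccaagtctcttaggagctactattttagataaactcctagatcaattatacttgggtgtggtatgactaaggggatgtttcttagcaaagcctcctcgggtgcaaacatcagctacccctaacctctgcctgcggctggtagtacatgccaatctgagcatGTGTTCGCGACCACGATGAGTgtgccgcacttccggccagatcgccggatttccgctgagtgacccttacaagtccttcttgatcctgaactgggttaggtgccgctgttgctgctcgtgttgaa

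Motifs were counted in the 33 of 39 respiratory promoters that the RefSeq table holds and in all 15813 promoters of the table, searching both strands of the 300 bases. CACGTG was present in 1 respiratory promoter (NDUFS7, 3.03%, against 8.87% of all promoters), and CATGTG in those of NDUFB8 and UQCRH (6.06% against 8.43%). CCGGAAGT, the binding sequence of ETS factors such as GABPA, was present in NDUFS1, SDHD, UQCRH and COX5B (12.1% against 6.20%). The NRF1 motif (GCGCA, any base, GCGC) was present in NDUFA8, NDUFA9, SDHA, SDHD, UQCRC1 and UQCRFS1 (18.2% against 8.59%), and no match overlapped a match to another of these motifs. None of these letters occurred in the windows of SDHB, COX5A or CYCS printed above. Of all promoters whose window held the summit of a strong WT peak, 25.4% had either E-box (576 of 2272). Of the 11 such respiratory promoters 1 did, that of UQCRH, and 11 are too few to compare the shares. In UQCRH CATGTG began at base 173 of the window and its centre lay 10.5 bases from the WT summit. The centre of CCGGAAGT lay 21.5 bases from the same summit.

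The best WT peaks of the respiratory genes covered a wide range of ranks, from 254 (SDHB) to 96837 (COX7C) in single libraries. In the WT libraries, 17, 16 and 19 of the 39 genes were strong, a mean of 44.4% ± 3.92 against 24.2% ± 0.119 of all protein-coding genes (SD, n = 3). The Empty libraries had 19, 12 and 10 strong respiratory genes, 35.0% ± 12.1 against 21.0% ± 3.51 of all genes. The share of the respiratory genes was thus above that of all genes in both groups, 1.70 to 2.01 times as high in WT and 1.44 to 1.96 times in Empty.

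**Figure D1:**
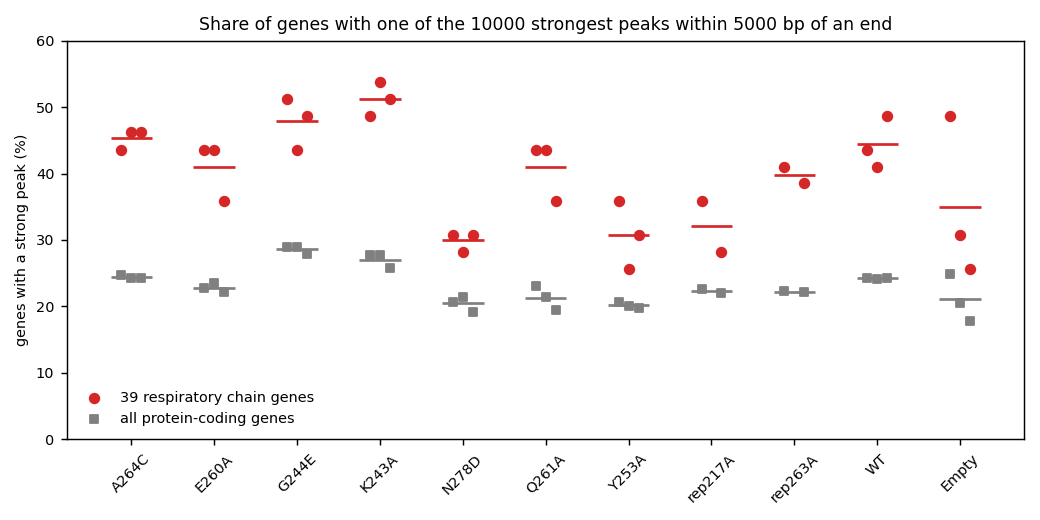
Percent of the 39 respiratory chain genes (red circles) and of all protein-coding genes (grey squares) that were strong in each distinct library, by group, with group means as lines. The respiratory share lay above that of all genes in each of the 31 libraries, Empty included, and was lowest on average in N278D, Y253A and rep217A.

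Among the variants, K243A had the most strong respiratory genes (20 ± 1 of 39, SD, n = 3) and G244E had 18.7 ± 1.53, against 17.3 ± 1.53 in WT. These were also the variants with the highest share of all genes strong, 27.0% ± 1.14 in K243A and 28.6% ± 0.609 in G244E against 24.2% ± 0.119 in WT. They were also the shallowest variants by the background recovered from the deposited fold and p. This was 0.132 to 0.244 in K243A and 0.108 to 0.151 in G244E, against 1.08 to 1.20 in WT. In rep217A it was 0.276 and 0.348, so the counts of K243A, G244E and rep217A above all compare lists of unequal depth with WT. In N278D and Y253A it was 0.882 to 1.16, close to that of WT. N278D had 11.7 ± 0.577 strong respiratory genes, Y253A had 12 ± 2 (n = 3 each) and rep217A had 12.5 ± 2.12 (n = 2), and none of their libraries reached the 16 genes of the lowest WT library. The share of all genes strong was below that of WT in them too, 20.5% ± 1.12 in N278D, 20.1% ± 0.478 in Y253A and 22.3% ± 0.467 in rep217A against 24.2% ± 0.119 in WT. A264C had 17.7 ± 0.577, E260A 16 ± 1.73, Q261A 16 ± 1.73 and rep263A 15.5 ± 0.707, within or next to the WT range of 16 to 19. No test was made of these counts, because the genes were listed with earlier results of these libraries known.

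By complex, the strong genes were uneven. All of complex II but SDHD was strong in every WT library (3 of 4), against 2.33 ± 1.15 in Empty, and complex IV had 5 of 9 in every WT library against 3.33 ± 1.53 in Empty. Complex I had 2.33 ± 0.577 of 6 core and 3.67 ± 0.577 of 13 accessory genes strong in WT, against 2.33 ± 1.15 and 3 ± 1 in Empty. Complex III had 2.33 ± 1.53 of 6 in WT and 2.33 ± 1.15 in Empty. N278D and Y253A had the lowest means for accessory complex I genes (2 ± 1.73 and 2 ± 1 against 3.67 ± 0.577 in WT), Y253A the lowest for complex II (1.67 ± 0.577 against 3 in WT) and rep217A the lowest for complex IV (3 ± 1.41 against 5 in WT). These are counts of few genes in groups whose share of all genes strong, given above, was also below that of WT.

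Of the 39 genes, 15 were strong in all 3 WT libraries (beside 21.4% of all genes): NDUFV1 and NDUFV2 of the NADH-oxidising module of complex I, the accessory subunits NDUFA6, NDUFB9 and NDUFB10, SDHA, SDHB and SDHC, CYC1, NDUFA4, COX4I1, COX5A, COX6B1 and COX7B, and CYCS. NDUFA5, SDHA and NDUFA4 were the 3 genes strong in all 3 Empty libraries (7.56% of all genes), and 0 of 39 were strong in every distinct library (4.2% of all genes). The genes strong in no library of any group were NDUFA8, NDUFA9, NDUFA10, NDUFB3, NDUFB5, NDUFB8, NDUFS4, UQCRB, COX6C and COX7C, 10 of 39, beside 48.7% of all genes. Further genes strong in no WT library were NDUFS3, NDUFS7, NDUFS8, NDUFA1, NDUFA5, SDHD, COX5B and COX6A1. By mean WT score (defined below), NDUFA2 lay just inside rank 10000 (1.10 ± 0.191) and UQCRC2 just outside it (0.91 ± 0.546, SD, n = 3).

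**Figure D2:**
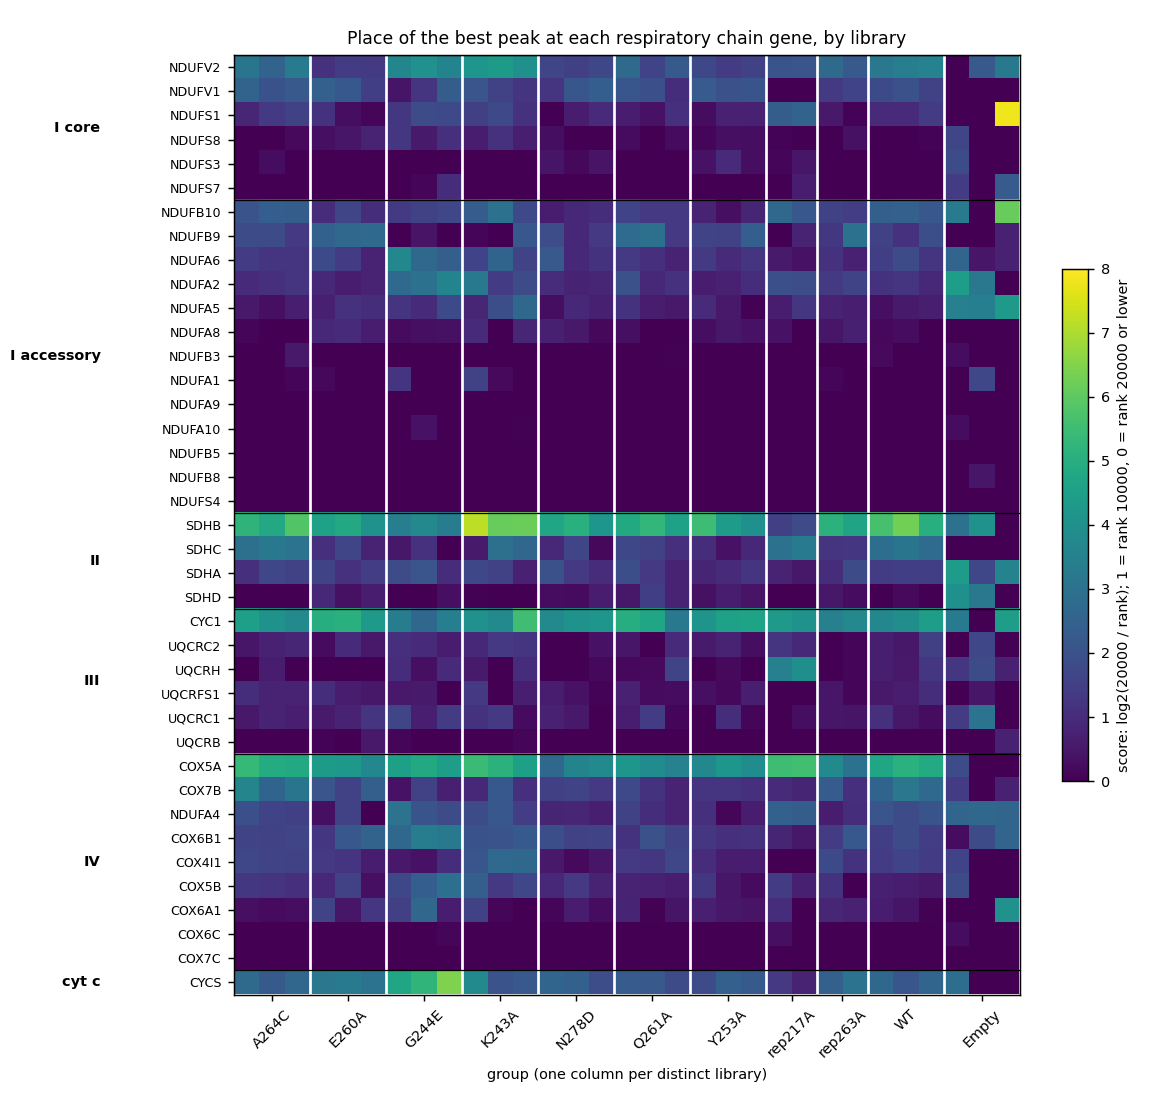
Scores of the 39 respiratory chain genes (rows, by complex and by mean WT score) in the 31 distinct libraries (columns, by group), where the score is log2(20000/rank), so that 1 is rank 10000 and 0 is rank 20000 or lower. SDHB, COX5A and CYC1 are the brightest rows in WT, and of the rows of genes strong in no library, that of NDUFA8 reaches a mean of 0.83 in E260A.

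The highest ranked genes in WT were SDHB, COX5A, CYC1, NDUFV2, SDHC and COX7B. SDHB, the iron-sulphur subunit of complex II, ranked 395, 254 and 623 in WT against 2553, 1195 and 65002 in Empty, so that the WT ranks were all higher in the list. COX5A, a structural subunit of complex IV, ranked 748, 578 and 667 in WT, far above its 5468, 63604 and 45036 in Empty. CYC1, the cytochrome c1 of complex III, ranked 1526, 1283 and 902 in WT and 2025, 21592 and 905 in Empty, where the groups overlapped. SDHC, a membrane anchor of complex II, ranked 2696, 2296 and 2872 in WT against 42796, 26936 and 27355 in Empty.

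The peak behind a gene was not always at that gene. In WT the summit lay within 500 bp of an end of the gene itself (at most 360 bp) for 32 of the 39 genes and over 1000 bp from it for the other 7. These were NDUFV2 (2334 bp away, and 106 bp from an end of ANKRD12), NDUFS3 (2911 bp), NDUFA5 (2260 bp, 142 bp from IQUB), NDUFB10 (2949 bp, 98 bp from RPS2), SDHA (2788 bp, 112 bp from PDCD6), COX6B1 (3796 bp, 344 bp from ETV2) and COX7B (3165 bp, 152 bp from ATP7A). Among the 15 genes strong in all WT libraries, 5 belonged to these 7 and 10 had the summit at their own end. A further 12 genes with the summit at their own end had an end of another gene within 500 bp of it, among them SDHD with TIMM8B, UQCRH with LRRC41, COX4I1 with EMC8 and CYCS with SPMIP4, and a peak there cannot be assigned to one gene of the pair. The gene table gives spans without exons, so no summit was placed in an exon, intron or UTR.

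For SDHB, COX5A, CYC1 and SDHC, among the highest ranked in WT, and for CYCS and UQCRH, whose promoters are printed above, the summit lay at the gene itself. On hg38, the summit of SDHB was at chr1 position 17054245, 213 bp upstream of the gene start, with a deposited fold enrichment of 25.3 (the authors' value) at rank 254. That of COX5A was at chr15 position 74938114, 41 bp upstream (fold 21.1), and that of SDHC at chr1 position 161314332, 49 bp from an end of the gene (fold 21.2). That of CYC1 lay 121 bp from an end of the gene, at rank 902 (fold 18.2), and the gene table gives no strand for SDHC or CYC1. That of CYCS was at chr7 position 25125446, 186 bp upstream (fold 19.1), and that of UQCRH at chr1 position 46303633, 65 bp upstream (fold 11.6). Of the 18 respiratory genes strong in any WT library whose start is in the promoter table, 13 had the summit within 500 bp of their own start (72.2%), and over all such protein-coding genes 65.2% did.

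For tests between groups each gene was given a score of log2(20000/rank) in each library, with ranks held to 20000, so that 1 unit of score is a factor of 2 in rank. Scores of 10937 protein-coding genes ranked within 20000 in at least 3 distinct libraries were compared with limma, and p-values were adjusted over all of them. Of the respiratory genes, 34 of 39 were ranked high enough to enter, while NDUFA9, NDUFB5, NDUFB8, NDUFS4 and COX7C were not. All variants were set against the same 3 WT libraries, so their differences share that reference, and WT is also the group set against Empty.

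WT against Empty compares cells given the tagged wild-type protein with the control. In WT, 8 respiratory genes ranked higher than in Empty at an adjusted p under 0.05 and 4 ranked lower, beside 18.7% of all genes tested higher and 17.5% lower. The median difference was −0.06 over the respiratory genes and −0.09 over all genes tested. The higher genes were SDHB, SDHC, COX5A, COX7B, COX4I1, NDUFV1, NDUFV2 and CYCS, which together span complexes I, II and IV and cytochrome c. The lower ones were NDUFA5, SDHA, SDHD and NDUFS7.

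COX5A differed most, with a mean score of 4.92 ± 0.186 in WT against 0.62 ± 1.08 in Empty (SD over 3 libraries a group; difference 4.3, SE 0.41, adjusted p = 1.43e-08), and its best peak was at the same site in all 3 libraries of both groups. SDHB scored 5.66 ± 0.647 in WT against 2.35 ± 2.10 in Empty (difference 3.31, SE 0.64, adjusted p = 0.000229). SDHC scored 2.94 ± 0.166 in WT and was at 0 in every Empty library (difference 2.94, SE 0.45, adjusted p = 1.49e-05). The WT summits of these 3 genes lay at the ends of the genes themselves. For SDHB and for SDHC, the best peak in Empty was at the WT site in 2 of 3 libraries. COX7B, a small subunit of complex IV, had its best WT peak by ATP7A instead, and its best peak in Empty was at that site in 0 of 3 libraries (scores 2.83 ± 0.310 in WT and 0.72 ± 0.703 in Empty, adjusted p = 0.000336). NDUFV1, SDHC and NDUFB9 were strong in all WT and no Empty libraries, 3 of 39 beside 4.06% of all genes. NDUFB9 did not pass the test (difference 1.29, SE 0.51, adjusted p = 0.0507).

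In the other direction, NDUFA5, an accessory subunit of complex I, ranked 16022, 13416 and 12460 in WT against 1777, 1836 and 1003 in Empty (difference −3.23, SE 0.37, adjusted p = 2.71e-07). It was the one respiratory gene strong in all Empty and no WT libraries (0.816% of all genes), and its peak lay by IQUB in every library. SDHD, the other membrane anchor of complex II, ranked 20092, 17526 and 26387 in WT against 1246, 2156 and 45036 in Empty (difference −2.34, SE 0.54, adjusted p = 0.00131), so that the third Empty library lay below all of WT. SDHA, the flavoprotein of complex II, ranked 7468, 7119 and 7168 in WT against 958, 6116 and 1673 in Empty (difference −1.76, SE 0.47, adjusted p = 0.00510), and its direction turned with summits within 1000 bp of the gene (0.54, adjusted p = 0.263). NDUFS7, an iron-sulphur subunit of complex I, was at 0 in every WT library and at 1.24 ± 1.16 in Empty (adjusted p = 0.00389). Each of these lower ranked genes had a higher deposited fold in every WT library than in any Empty library. For NDUFA5 the fold was 16.0, 17.5 and 19.4 in WT against 5.8, 5.2 and 5.4 in Empty. This was not particular to these genes. COX5A, which ranked higher in WT, had folds of 19.5, 21.1 and 20.1 in WT against 4.3, 1.9 and 1.9 in Empty. The recovered background was 0.03 in every Empty library and 1.08 to 1.20 in WT, so folds are not comparable between these groups. The lower ranks are lower places in the list and do not measure binding.

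The smaller differences were those of NDUFV1 (1.77, SE 0.40), NDUFV2 (1.56, SE 0.48), CYCS (1.51, SE 0.56) and COX4I1 (0.95, SE 0.34). The groups overlapped for NDUFV2, CYCS and COX4I1. CYCS ranked 2702 in the first Empty library, above all of WT (3096, 4580 and 3277). COX4I1 ranked 6608 there, against 7391, 6536 and 7565 in WT. NDUFV2 ranked 2126 in the third Empty library, against 2170, 1878 and 1715 in WT. Its best Empty peak was at the WT site in 0 of 3 libraries. The fitted spread (SD) of the Empty libraries was 7.5 times that of WT, and with a separate spread for each group only COX5A passed (adjusted p = 0.0443), with 1 gene called in place of 12. Centring each library on its median gave 20 calls.

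**Figure D3:**
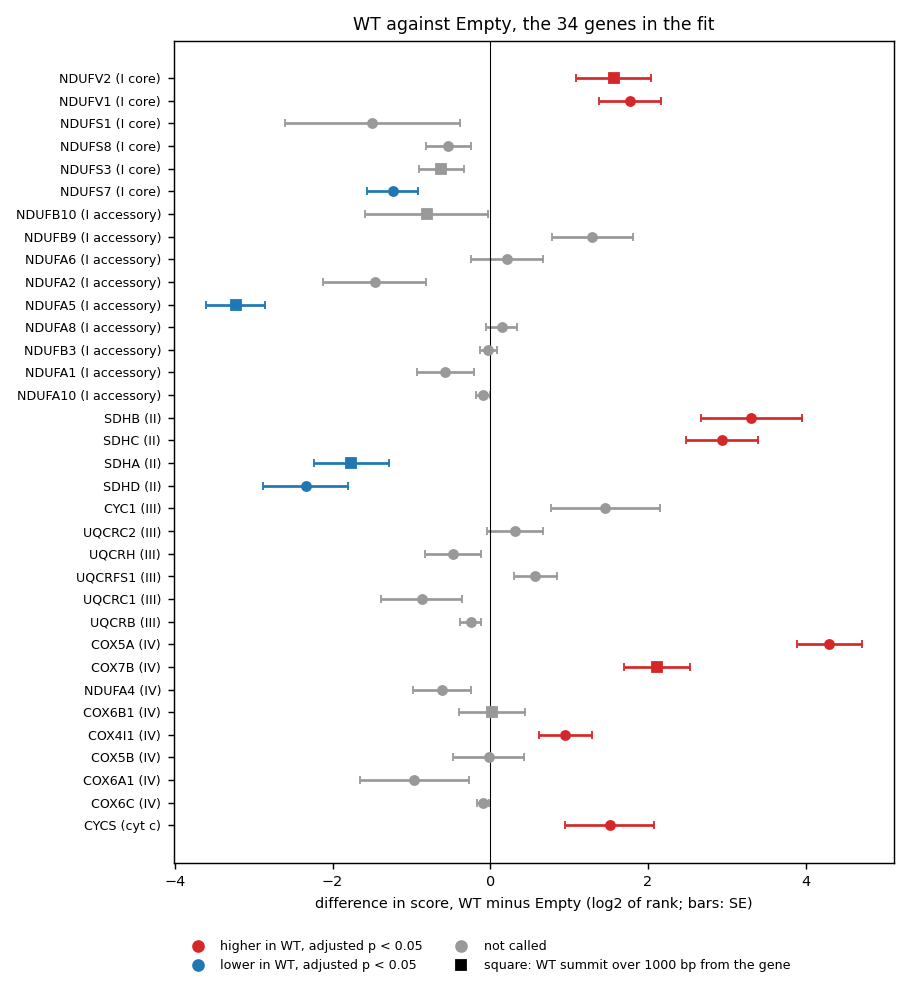
Difference in score, WT minus Empty (log2 of rank, bars are SE), for the 34 respiratory chain genes in the fit, with 3 libraries a group. COX5A, SDHB and SDHC lie farthest to the right and NDUFA5 and SDHD farthest to the left, and squares mark genes whose WT summit lay over 1000 bp from the gene.

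In A264C 0 respiratory genes passed the limma test in either direction against WT, and 0 had an unadjusted p under 0.05 (all genes tested: 0% higher and 0.0183% lower). The median difference was 0.02 over the respiratory genes and 0 over all genes. COX5B, a zinc-binding subunit of complex IV, was strong in all A264C libraries (ranks 8175, 8695 and 9568) and in no WT library (12374, 13111 and 14042), beside 0.17% of all genes, and none the other way (0.115%). Its difference in score did not pass the test.

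In G244E, at an adjusted p under 0.05, 6 of the 34 respiratory genes ranked higher than in WT and 4 lower, beside 16.0% of all genes tested higher and 7.94% lower, so that the counts lay near the shares of all genes. Its median difference was 0.09 over the respiratory genes and 0.23 over all genes, so that scores in G244E were shifted upward as a whole. The higher genes were CYCS, the complex IV genes COX5B and COX6B1, and NDUFA2, NDUFA6 and NDUFS8 of complex I. The lower ones were SDHB and SDHC of complex II, COX7B of complex IV and NDUFB9 of complex I.

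CYCS, which carries electrons from complex III to complex IV, ranked 747, 534 and 228 in G244E against 3096, 4580 and 3277 in WT. Every G244E library ranked it above every WT library, at the same site (difference 3.00, SE 0.56, adjusted p = 0.000353). SDHC ranked 13856, 8980 and 20976 in G244E against 2696, 2296 and 2872 in WT, without overlap (difference −2.38, SE 0.45, adjusted p = 0.000396). Its best peak was at the WT site in 2 of 3 G244E libraries. SDHB ranked 1873, 1459 and 1907 in G244E against 395, 254 and 623 in WT, and remained strong in all of them (difference −2.13, SE 0.64, adjusted p = 0.0166).

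COX7B ranked 15336, 6749 and 12321 in G244E against 3374, 2219 and 2977 in WT (difference −1.95, SE 0.42, adjusted p = 0.00143), with the best peak at the WT site by ATP7A in 2 of 3 G244E libraries. COX5B ranked 5954, 3807 and 2663 in G244E against 12374, 13111 and 14042 in WT (difference 1.75, SE 0.45, adjusted p = 0.00615), strong in all of the variant and none of WT, beside 2.58% of all genes. NDUFA2, an accessory subunit, ranked 3024, 2471 and 1639 in G244E against 8854, 8454 and 10841 in WT (difference 2.02, SE 0.65, adjusted p = 0.0246). NDUFB9, also accessory, was the one gene strong in all WT and no G244E libraries (1.38% of all genes), with ranks of 34325, 14948 and 35030 in G244E against 6850, 9030 and 5231 in WT (adjusted p = 0.0479).

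The others called were COX6B1 (1.49, SE 0.42, with its peak by ETV2), NDUFA6 (1.44, SE 0.46) and NDUFS8 (0.95, SE 0.29). G244E libraries were among the shallowest, with a recovered background of 0.108 to 0.151 against 1.08 to 1.20 in WT; with all libraries but Empty thinned to the depth of the shallowest, 10 genes were called, NDUFB9 not among them (−1.19, adjusted p = 0.119), and the part of depth beyond this was not tested. Without replicates 1, 2 or 3 of every group, 6, 3 and 5 were called, and CYCS, SDHC and COX7B stayed called under every alternative that could be fitted.

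**Figure D4:**
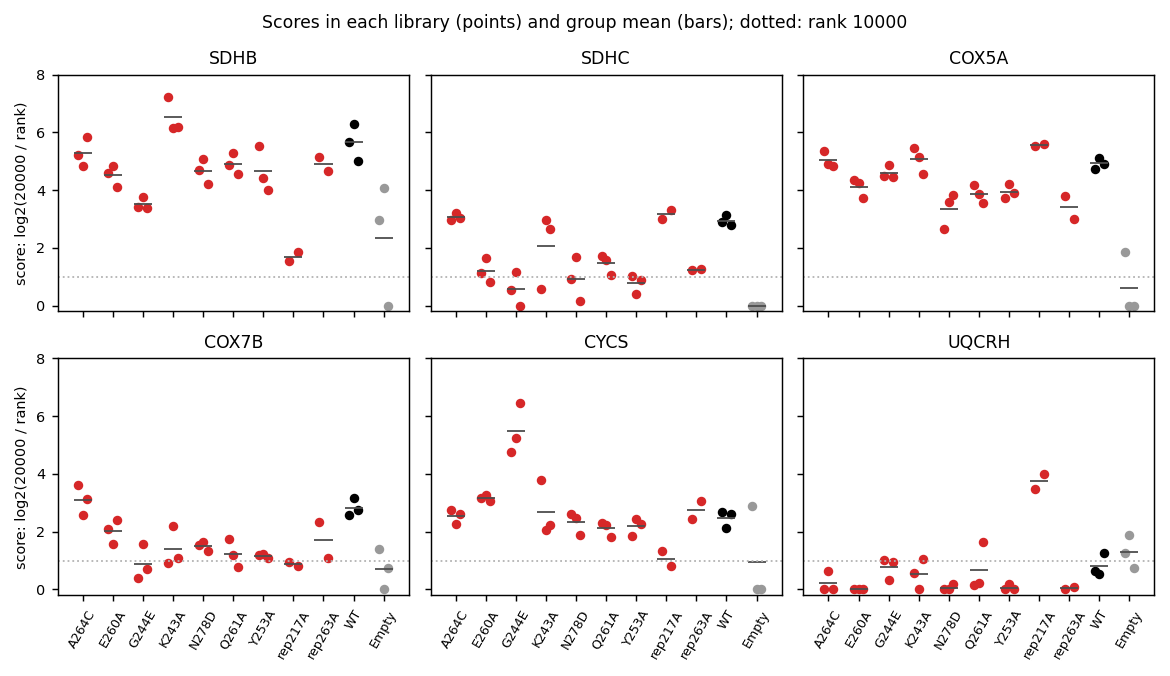
Scores (log2 of 20000/rank) of SDHB, SDHC, COX5A, COX7B, CYCS and UQCRH in every distinct library, by group, with group means as bars and rank 10000 dotted. CYCS stands highest in G244E, UQCRH in rep217A, and SDHB is lowest among the variants in rep217A.

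K243A, like G244E, had a raised median over all genes tested (0.13, against 0.16 over the respiratory genes), but 1 respiratory gene passed in each direction, beside 4.61% of all genes higher and 3.56% lower. NDUFA5 scored 1.83 ± 0.918 in K243A and 0.53 ± 0.186 in WT (difference 1.30, SE 0.37, adjusted p = 0.0300). COX7B scored 1.40 ± 0.695 in K243A and 2.83 ± 0.310 in WT (difference −1.43, SE 0.42, adjusted p = 0.0354). COX5B was strong in all K243A libraries (ranks 3756, 7911 and 6090) and in no WT library, beside 1.33% of all genes (0 genes and 0.721% of all genes the other way), and did not pass the test (1.22, SE 0.45, adjusted p = 0.101). SDHB had its highest ranks of the series here, 135, 281 and 274, against 395, 254 and 623 in WT, and the groups overlapped. Without replicate 3 of every group 0 genes were called. The peaks of both called genes lay by other genes, that of NDUFA5 by IQUB and that of COX7B by ATP7A. With summits within 1000 bp the count was also 0, but neither gene could be fitted there, so this does not test the calls.

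N278D had 6 respiratory genes lower than WT and 0 higher, beside 8.60% of all genes tested lower and 2.89% higher, with a median difference of −0.07 over the respiratory genes and −0.06 over all. The 6 were SDHC, NDUFV2, COX5A, COX7B, NDUFA4 and COX4I1. SDHC ranked 10495, 6229 and 17822 in N278D against 2696, 2296 and 2872 in WT (difference −2.01, SE 0.45, adjusted p = 0.00342). COX5A ranked 3160, 1647 and 1423 in N278D against 748, 578 and 667 in WT, lower in each library but still strong (difference −1.56, SE 0.41, adjusted p = 0.0122).

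NDUFA4 (difference −1.23, SE 0.36, adjusted p = 0.0258) and COX4I1, the largest nuclear-encoded subunit of complex IV (−1.08, SE 0.34, adjusted p = 0.0398), were strong in all WT and no N278D libraries, 2 of 39 beside 2.83% of all genes, and none the other way (0.801%). NDUFV2 (−1.74, SE 0.48) and COX7B (−1.34, SE 0.42) had their best WT peaks by ANKRD12 and ATP7A, and NDUFV2 was not called with summits within 1000 bp (−0.27). Without replicates 1, 2 or 3 of every group 4, 1 and 1 genes were called, with ranks by fold 1, and after centring 2.

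In Y253A 4 respiratory genes were lower and 0 higher, beside 7.74% of all genes tested lower and 2.72% higher. SDHC ranked 9743, 15164 and 10808 in Y253A against 2696, 2296 and 2872 in WT (difference −2.16, SE 0.45, adjusted p = 0.00187). COX7B (−1.66, SE 0.42), NDUFA4 (−1.41, SE 0.36) and NDUFV2 (−1.82, SE 0.48) were the others. NDUFB10, whose peak lay by RPS2, was strong in all WT and no Y253A libraries (2.77% of all genes, with 0 genes and 0.801% of all genes the other way) and did not pass the test (−1.70, SE 0.78, adjusted p = 0.206).

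In E260A 3 were lower and 1 higher, beside 6.99% of all genes tested lower and 4.68% higher. SDHC ranked 9215, 6316 and 11426 in E260A against 2696, 2296 and 2872 in WT (difference −1.74, SE 0.45, adjusted p = 0.0106). NDUFV2 ranked 9133, 7518 and 7764 in E260A against 2170, 1878 and 1715 in WT, with no overlap and at the same site by ANKRD12 (difference −2.08, SE 0.48, adjusted p = 0.00409). NDUFA4 differed by −1.38 (SE 0.36), and NDUFA8, an accessory subunit that was strong in no library, by 0.69 (SE 0.20, adjusted p = 0.0214). Without replicates 1, 2 or 3 of every group, 2, 1 and 1 genes were called in Y253A and 1, 1 and 1 in E260A; within 1000 bp of the gene, NDUFV2 differed by −0.18 and −0.02 in these variants and was not called.

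Q261A and rep263A had few or no calls. In Q261A COX7B alone passed, lower than WT (scores 1.24 ± 0.499 in Q261A and 2.83 ± 0.310 in WT, difference −1.59, SE 0.42, adjusted p = 0.0251), and 0 were higher, beside 3.68% of all genes tested lower and 1.14% higher. SDHC just missed (−1.48, SE 0.45, adjusted p = 0.0613), and without replicates 1, 2 or 3 of every group 0 genes were called. In rep263A 0 genes passed in either direction (2.83% of all genes lower and 0.768% higher), with 5 lower and 0 higher at an unadjusted p under 0.05, among them SDHC (−1.70, SE 0.51, adjusted p = 0.0656) and COX5A (−1.52, SE 0.46, adjusted p = 0.0694). None of the 39 genes was strong in all of E260A, Q261A or rep263A and in no WT library (1.3%, 0.365% and 0.731% of all genes), or the other way round (2.11%, 1.41% and 1.96%). With a separate spread for each group 7 genes were called in Q261A and 8 in rep263A.

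In rep217A, at an adjusted p under 0.05, 1 respiratory gene ranked higher than in WT and 4 lower, beside 7.49% of all genes tested higher and 11.1% lower. UQCRH, the hinge protein of complex III that lies between cytochromes c1 and c, ranked 1774 and 1254 in rep217A against 12689, 13637 and 8262 in WT, at the same site 65 bp upstream of the gene (difference 2.92, SE 0.40, adjusted p = 5.71e-06). This is the promoter printed above with both CATGTG and CCGGAAGT near the summit, which also lies 17 bp from an end of LRRC41. SDHB ranked 6925 and 5575 in rep217A against 395, 254 and 623 in WT, below every WT library and still strong (difference −3.97, SE 0.71, adjusted p = 0.000194).

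NDUFV1, the FMN-binding subunit that oxidises NADH, ranked 27881 and 21989 in rep217A against 5816, 5109 and 6761 in WT (difference −1.77, SE 0.44, adjusted p = 0.00501). COX4I1 ranked 50875 and 27732 in rep217A against 7391, 6536 and 7565 in WT (difference −1.48, SE 0.38, adjusted p = 0.00588), and COX7B ranked 10273 and 11293 against 3374, 2219 and 2977 in WT (difference −1.94, SE 0.47, adjusted p = 0.00389). Both groups were apart for each of these genes. COX5A, in contrast, ranked 437 and 415 in rep217A, above all of its WT ranks (748, 578 and 667), but did not pass the test.

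In all, 7 of the 39 genes were strong in all WT and no rep217A libraries (NDUFV1, NDUFA6, NDUFB9, SDHA, COX4I1, COX6B1 and COX7B), beside 4.13% of all genes, and none the other way (2.42%). The WT peaks of SDHA, COX6B1 and COX7B lay by PDCD6, ETV2 and ATP7A. Those of NDUFB9 and COX4I1 also lay near an end of TATDN1 and EMC8. The best peak of COX7B was at its WT site in 1 of 2 rep217A libraries. SDHC ranked 2478 and 2009 in rep217A, above all of its WT ranks (2696, 2296 and 2872) in 1 of 2 libraries, but from a peak over 500 bp from the WT summit in both. Without replicates 1, 2 or 3 of every group 3, 4 and 6 genes were called, and UQCRH and COX7B stayed called under every alternative that could be fitted. Without replicate 1 or 2, 1 distinct rep217A library is left, and its spread is then assumed to be that of the other groups. SDHB missed the threshold without replicate 1 (−3.81, adjusted p = 0.0719) and with ranks by fold (−2.51).

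**Figure D5:**
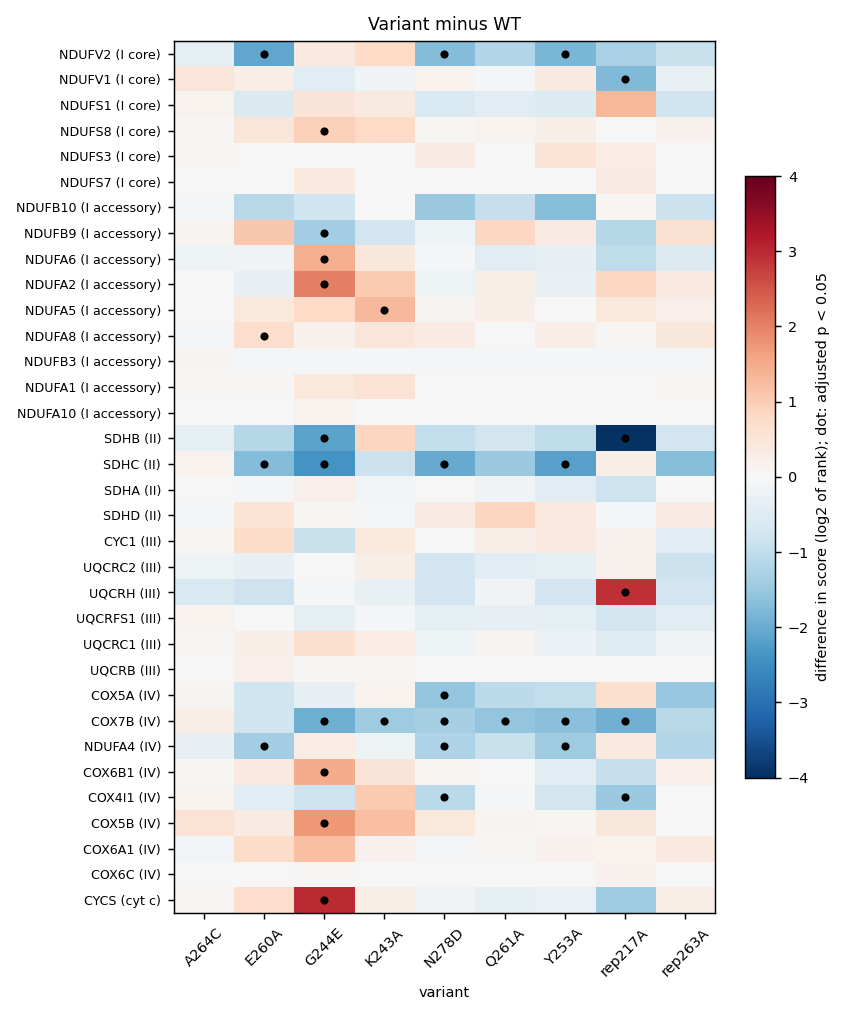
Difference in score of each variant minus WT (log2 of rank, blue lower and red higher in the variant) for the 34 respiratory chain genes in the fit, with dots where the adjusted p was under 0.05. The COX7B, SDHC and NDUFV2 rows are blue in most columns, CYCS in G244E and UQCRH in rep217A are the deepest red, and SDHB in rep217A is the deepest blue.

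The rest of the oxidative phosphorylation genes gave no uniform picture either. Their counts stand beside 24.2% of all genes strong in WT and 21.0% in Empty, with 18.7% of all genes tested higher and 17.5% lower in WT than in Empty. Of 15 ATP synthase genes, 8.33 ± 0.577 were strong in WT against 7 ± 1 in Empty, and of the 13 in the fit 2 were higher and 2 lower in WT than in Empty. Of 18 further complex I genes 4.67 ± 0.577 were strong in WT against 5 ± 1 in Empty, with 2 higher and 3 lower of 14 in the fit. Of 6 further complex III and IV genes 3 were strong in WT against 2.33 ± 0.577 in Empty, with 0 higher and 2 lower of 4. Of 16 assembly factors 5 were strong in WT against 3 ± 1.73 in Empty, with 3 higher and 2 lower of 12, and of 12 regulators of mitochondrial genes 5.67 ± 0.577 against 4.33 ± 1.53, with 0 higher and 1 lower of 12.

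Against WT, the calls in G244E were 2 higher and 1 lower of 13 ATP synthase genes, 3 higher and 0 lower of 14 further complex I genes and 2 higher and 2 lower of 12 assembly factors, beside 16.0% of all genes tested higher and 7.94% lower. The pigmentation genes moved otherwise. In WT 9 of the 15 in the fit were higher than in Empty and 0 lower (median difference 1.64, against −0.06 over the respiratory genes), and in G244E 1 was higher and 7 lower than in WT (median −0.83). Of the other lists named above, 1 of 3 lymphoid genes was higher and 1 lower in WT than in Empty, and 1 of 2 hepatocyte genes was higher.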

How the data were processed

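Each library was deposited by the authors as a narrowPeak list on hg38, and the submitters' processing notes name MACS2, Bowtie2 (2.3.4.3) and bcl2fastq (2.20.0.422). The MACS2 version, any control library and duplicate removal are not given in the sources used here. The lists have no header, and in narrowPeak order the columns the authors deposited are a fold enrichment (a ratio over local background), a −log10 p and a −log10 q per peak, with a score of 10 times the −log10 p that was not used, and lists were not pooled. Read depth is not given, so a relative background was recovered from the deposited fold and p.

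Peaks were ranked within a library by −log10 q, with ties at their mean rank. A gene took its best ranked peak with the summit within 5000 bp of either end (RefSeq, GRCh38.p14). Scores, log2(20000/rank) with ranks held to 20000, were computed here and compared in R 4.3.3 with limma 3.58.1 (mean-variance trend, 1 term per group, all 31 libraries, Benjamini-Hochberg over 10937 genes, threshold 0.05), after a test on simulated data. For thinning, pileups were sampled binomially (5 draws, seed 1). Sequences are from RefSeq. The members, lists and tests were chosen with earlier results of these data known. Named genes were the 6 highest in WT, those strong in no WT library, the called genes (the 6 largest where more passed, the rest added after their values were seen), complete splits and those next to rank 10000.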

Additional observations from a re-analysis of the deposited data

How the results depend on the processing

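The 44 called differences were run again under other settings. They kept direction and threshold in 429 runs, missed the threshold in 151 and reversed in 2, namely SDHA in WT against Empty with summits within 1000 bp (0.54) and NDUFV2 in Y253A with ranks by fold (0.44). Of the 44, only 6 stayed called under every alternative run. The least stable were NDUFB9 in G244E, called in 5 of 14 alternatives, and CYCS in WT against Empty, called in 5 of 12. Values for COX7B, NDUFA5 and COX6B1 within 1000 bp could not be fitted, since their peaks lay farther away. The main counts of respiratory genes called are 0 in A264C, 4 in E260A, 10 in G244E, 2 in K243A, 6 in N278D, 1 in Q261A, 4 in Y253A, 5 in rep217A, 0 in rep263A and 12 in WT against Empty. Ranked by fold, the counts that moved were 2 in E260A, 8 in K243A, 1 in N278D, 0 in Q261A and 2 in Y253A. Thinned to the common depth, they were 5 in K243A, 4 in Q261A, 7 in Y253A, 8 in rep217A and 1 in rep263A. Ranks held to 10000 gave 3 in Q261A and 3 in rep263A, and ranks held to 50000 gave 1 in K243A, 3 in N278D and 0 in Q261A. Within 1000 bp, K243A and Q261A each had 0, where the genes called in the main fit (NDUFA5 and COX7B) could not be fitted. Median-centred scores gave 1 in K243A, 2 in N278D, 0 in Q261A and 20 in WT against Empty; genes held at 0 take unequal values there by construction. Without the filter on genes K243A had 1. Chosen after seeing the data, a spread per group gave 15 in E260A, 12 in N278D, 7 in Q261A, 11 in Y253A, 9 in rep217A, 8 in rep263A and 1 in WT against Empty, and a fit without Empty libraries gave 8 in E260A, 7 in K243A, 6 in Q261A, 8 in Y253A, 10 in rep217A and 3 in rep263A. Ties in file order, also chosen after seeing the data, moved no count by over 1.5 times. Apart from centring and the distance, the cause was not tested.

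Leaving out 1 replicate number in every group gave 1 to 1 in E260A, 3 to 6 in G244E, 0 to 2 in K243A, 1 to 4 in N278D, 0 to 0 in Q261A, 1 to 2 in Y253A, 3 to 6 in rep217A, 0 to 1 in rep263A and 8 to 13 in WT against Empty. Without replicate 1 or 2, rep217A and rep263A keep 1 distinct library each, which is assumed to vary like the other groups. Strong respiratory genes per library averaged 15.6 over 31 libraries; taking the 5000 strongest peaks gave 7.68, the 20000 strongest 25.4 and a distance of 1000 bp 12.2. Over all pairs, libraries with the same replicate number showed no common deviation (median correlation 0.001, −0.129 to 0.362 over 146 pairs). For different numbers the median was −0.001 (−0.274 to 0.252 over 290 pairs), and 12 of 31 libraries correlated best with their own number. The medians cannot tell whether some of the groups were paired. With the replicate block, 2 genes were called in Q261A, 1 in rep263A and 9 in G244E, and the other counts stood. In simulated data of the size of G244E against WT, 200 of 10937 genes were changed, drawn from those of high WT score. Of genes shifted by 1, 2 and 4 units, 5.0%, 47.5% and 92.5% were called. Smaller shifts can therefore be missed, and 8.93% of these simulated calls were false. The effect of depth on Empty was not tested, since Empty was left out of the thinning. Each simulated gene had the same spread in every group, whereas the fitted spread of the G244E libraries was 3.25 times that of WT. These shares may therefore not hold for the real comparison.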
